A study of Mus musculus with 6 samples.

Results

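Rab GTPases are small membrane switches that give each compartment of vesicle traffic its identity. They were followed here as the rows of a gene count table whose symbol is Rab, a number and at most 1 letter and 1 further digit, which leaves out Rab-interacting proteins. This gave 59 of the 17459 symbols in the table. Expression was measured by RNA sequencing in microglia, the resident macrophages of the brain, in 3 cKO and 3 cWT libraries. The cKO mice were Mir137loxP/loxP;Tmem119-CreERT2, in which a tamoxifen-activated Cre recombinase made under the microglial gene Tmem119 removes the microRNA gene Mir137. The cWT mice were Mir137+/+;Tmem119-CreERT2 and thus carried the same Cre without loxP sites. All were male C57BL/6J mice of 8 weeks, given tamoxifen on 7 consecutive days at 7 to 8 weeks of age, so both genotypes shared the strain, the drug and the Cre allele. Deletion can occur only in cells in which Tmem119 is or was active at that age, and the labels do not state how long after the last injection the cells were isolated. The labels name 4 mice for the isolation without assigning them to replicates, so the p-values reflect only how these libraries vary, and that variation may be technical.

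A Rab protein is loaded with GTP by a guanine nucleotide exchange factor, binds effectors such as tethers, motors and adaptors while GTP-bound, and is switched off by a GTPase-activating protein, usually of the TBC family. A geranylgeranyl lipid, added with the help of Rab escort proteins, anchors it to membranes, and GDP dissociation inhibitors carry the GDP form back through the cytosol. Macrophages take up large amounts of material, and their Rab5 to Rab7 conversion marks the maturation of endosomes and phagosomes on the way to the lysosome.

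The microRNA removed in cKO pairs with messenger RNAs through its seed, bases 2 to 8, shown in capitals in the mature mouse sequence from RefSeq (GRCm38.p6, chr3:118433901-118433923, plus strand). The longest annotated 3' UTR of each tested Rab gene was searched on the transcript strand for the complement of that seed, AGCAATA. The 4 Rab genes that held it are shown with 11 bases on either side, with the match in capitals (GRCm38).
mmu-miR-137-3p: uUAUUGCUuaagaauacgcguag
Rab11b, chr17:33746781-33746787, minus strand: tctgcaagtgaAGCAATAtcttcgtgttt
Rab35, chr5:115647401-115647407, plus strand: ttgccaattcaAGCAATAaaagggtgatc
Rab8a, chr8:72181272-72181278, plus strand: accaacgtaccAGCAATAgtcacctgccc
Rab7b, chr1:131714104-131714110, plus strand: gacttcaagacAGCAATAacagcatccga
The matches in Rab35 and Rab7b are followed by a further A, which makes the stricter 8-base match AGCAATAA. A 7-base match was found in 8.16% of the 49 tested Rab genes, against 10.2% of the 13012 tested genes with an annotated 3' UTR. Of the 4 Rab genes, Rab8a was called higher in cKO, Rab11b was called lower, and Rab35 and Rab7b were not called. A second fit, described below, took offsets for transcript length and GC content. In it Rab8a (log2 fold change 1.52), Rab11b (0.39) and Rab7b (0.72) were called higher and Rab35 was not called. Of all 1331 tested genes with a match, 255 were called higher and 731 lower without the offsets. Their median 3' UTR was 2605 bases, against 1191.5 bases over all 13012 genes, and fold changes followed transcript length. A match is a run of letters and not a shown target site.

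The libraries held 12068698 to 15212806 estimated counts in cKO and 16503817 to 17482042 in cWT. Levels are given as CPM, counts relative to the effective library size, using the trimmed mean of M-values (TMM) factors of edgeR, whose factors were 0.852 to 0.900 in cKO and 1.13 to 1.17 in cWT. A single gene, Cst3, took 5.36% to 6.38% of all counts in cKO and 1.84% to 2.22% in cWT. The authors' deposited table lists Mir137 with a base mean of 0, and the count table has no row for it, so the deletion was not checked. Tmem119, the driver of the Cre, averaged 1084 ± 225 CPM in cKO and 425 ± 30.1 CPM in cWT (SD, n = 3 each).

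The 10 microglia markers, 3 called higher and 5 lower, were present in every library, with summed levels of 32878 to 37091 CPM in cKO and 35336 to 37565 CPM in cWT. Markers of several other cell types differed between the genotypes, not all in 1 direction. The 5 choroid plexus markers, all called higher, summed to 10432 to 14114 CPM in cKO and 2167 to 2445 CPM in cWT. The 6 neutrophil markers, 4 called higher and 1 lower, summed to 11348 to 15857 CPM in cKO and 4257 to 4812 CPM in cWT. The 5 monocyte markers, 3 called higher and 1 lower, summed to 1142 to 1484 CPM in cKO and 659 to 785 CPM in cWT. The 12 neuron markers, which matter for the synaptic Rab3 proteins, summed to 28.8 to 36.0 CPM in cKO and 22.2 to 24.6 CPM in cWT. Of the 6 tested neuron markers Stmn2 (log2 fold change 0.59) and Tubb3 (1.84) were called higher and Meg3 (-2.20) lower, and Nefl and Nefm, at 0 in every cKO library, averaged 0.05 and 0.10 CPM in cWT. The 9 oligodendrocyte markers, 7 called higher and 1 lower, summed to 320 to 474 CPM in cKO and 288 to 295 CPM in cWT. Of the 7 endothelial markers 2 were called higher and 4 lower, and of the 5 mural cell markers 2 higher and 2 lower. Of the 6 border-associated macrophage markers 4 were called higher and 1 lower, and of the 7 astrocyte markers 2 higher and 0 lower. Summed levels of the mural cell and of the border-associated macrophage markers overlapped between genotypes. Fold changes in these libraries followed transcript length, and the second fit took offsets for transcript length and GC content. In that fit 4 choroid plexus markers were called higher and 0 lower by edgeR, against 1 higher and 3 lower of the neutrophil markers and 1 higher and 2 lower of the monocyte markers. The oligodendrocyte markers gave 7 higher and 1 lower calls with the offsets, the astrocyte markers 4 and 0, and the neuron markers 2 and 0. The endothelial markers gave 1 higher and 4 lower, the mural cell markers 0 and 2, and the border-associated macrophage markers 2 and 2. Of the 10 microglia markers 1 was called higher and 6 lower with the offsets, with a median log2 fold change of -0.47 (-0.06 without them). The median log2 fold change of the neutrophil markers was -0.32 with the offsets and 1.5 without them, and that of the monocyte markers 0.05 with them and 1.17 without. The part of these cells in the Rab results was not tested. In bulk RNA, fewer cells of a type and less RNA per cell cannot be told apart.

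Of the 59 Rab genes, 49 had enough counts to be tested. In cKO, 19 of them were called higher and 11 lower at an adjusted p under 0.05 (edgeR quasi-likelihood test, Benjamini-Hochberg over all genes), and 19 were not called. Across all 13490 tested genes 72.1% were called, 35.6% higher and 36.5% lower. The median log2 fold change of the tested Rab genes was 0.19 (cKO over cWT), against -0.02 over all tested genes. The CPM values of the genotypes did not overlap for 31 of the 49 Rab genes, against 74.6% of all tested genes. The Rab genes were thus called no more often than genes at large. Their share called higher, 38.8%, was near that of all genes, and their share called lower, 22.4%, was below it. With the offsets 22.4% of the Rab genes were called higher and 24.5% lower, beside 25.9% and 31.5% of all genes.

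The split into higher and lower calls changed with the scaling. Scaled by total counts alone, 11 Rab genes were called higher and 21 lower in cKO, with a median of -0.20, while the median of all genes moved to -0.42. Of all 13490 tested genes 3331 were then called higher and 6742 lower. Higher calls made up 34.4% of the Rab calls and 33.1% of all calls, so this split was near that of genes at large. The higher calls of Rab1b, Rab5c, Rab7, Rab12, Rab13, Rab18, Rab27b and Rab32 did not hold under that scaling, and those of the other 11 did. The Rab genes took 0.335% ± 0.00800 of all counts in cKO and 0.386% ± 0.00446 in cWT (SD, n = 3 each), a lower share in cKO. Their summed level on the TMM scale was 3838 ± 38.0 CPM in cKO and 3367 ± 57.0 CPM in cWT, higher in cKO. The medians of the Rab genes and of all genes thus shifted together, and the sign of a small Rab change depends on the scaling.

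The 10 Rab genes not tested were Rab33a, Rab39b, Rab17, Rab25, Rab9b, Rab26, Rab3c, Rab3b, Rab38 and Rab42. The highest value of any of them in a library was 1.37 CPM, for Rab33a. Rab17, an epithelial endosomal Rab, had no count in any library.

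**Figure D1:**
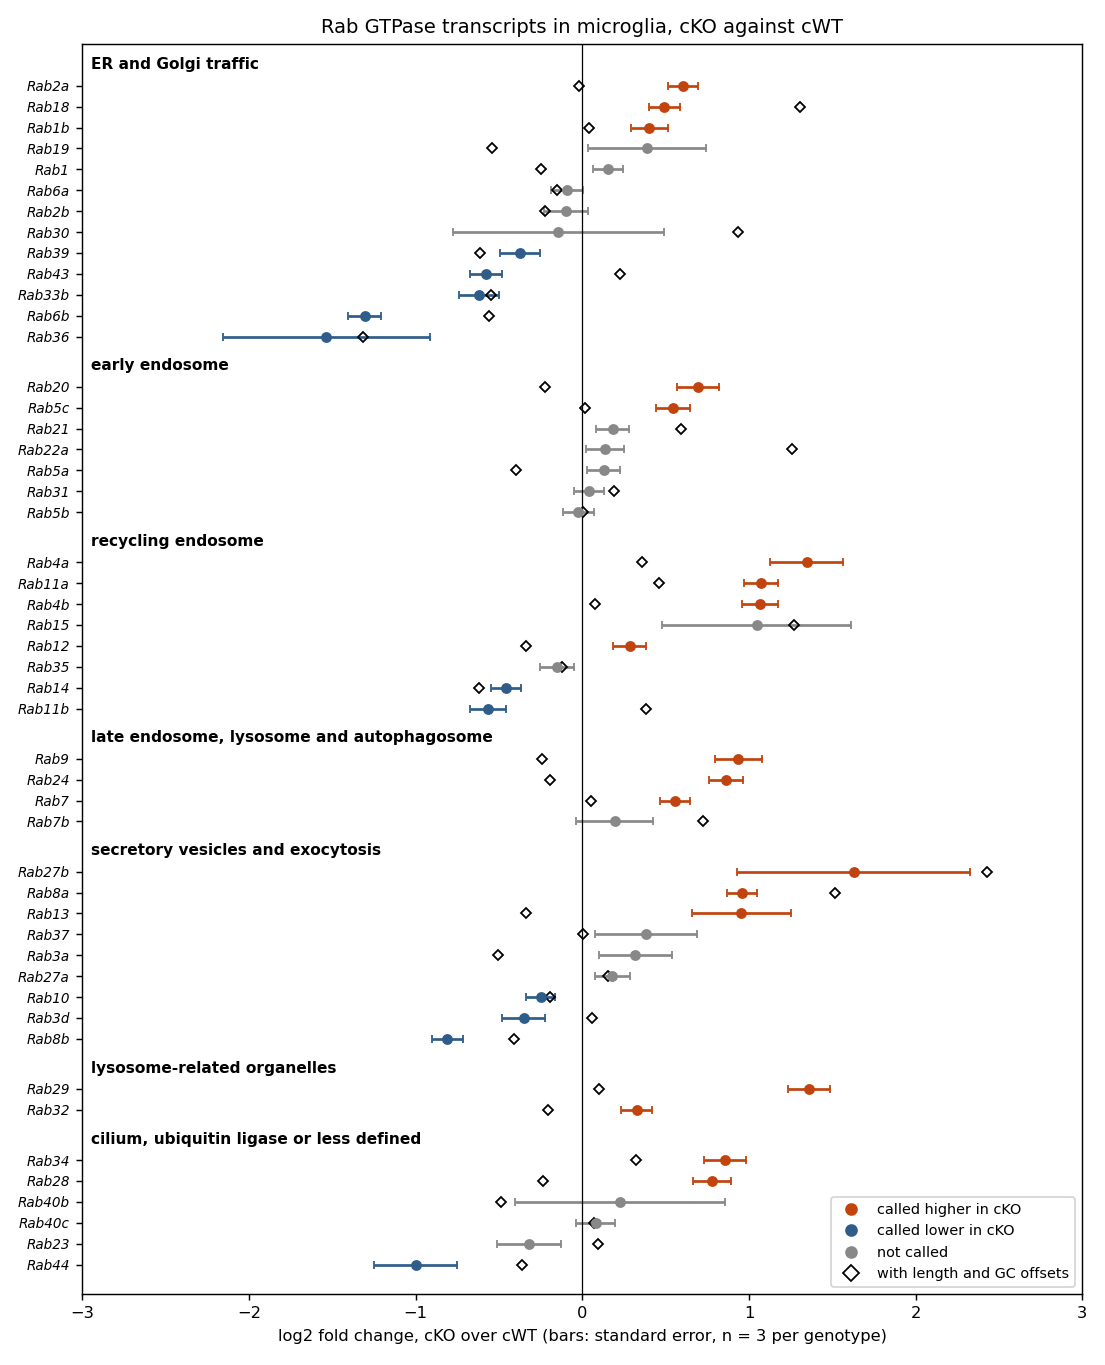
Log2 fold change, cKO over cWT, of each of the 49 tested Rab genes grouped by compartment, with bars of 1 SE, colours for the call (TMM scaling, 3 libraries each) and diamonds for the fit with length and GC offsets. Rab6b lies at -1.31 and Rab29 at 1.36. Scaled by total counts alone, 14 genes above 0 here turn below 0, among them Rab1, Rab5a, Rab7b, Rab27a and Rab32.

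The 6 most abundant Rab transcripts over all libraries came from several compartments. Levels of different genes are given per kilobase of the principal annotated transcript. Rab7, which brings late endosomes and autophagosomes to the lysosome, was the most abundant Rab gene at 199 ± 6.11 CPM per kilobase in cKO and 136 ± 1.33 in cWT. Rab5c, an early endosomal paralogue of Rab5, followed with 167 ± 20.8 CPM per kilobase in cKO and 115 ± 2.90 in cWT. In cKO the third place was held by Rab11a, with 117 ± 13.2 CPM per kilobase against 55.8 ± 4.81 in cWT. In cWT it was held by Rab14, with 66.3 ± 3.61 CPM per kilobase in cKO and 91.1 ± 2.27 in cWT. Rab14 thus stood below Rab11a in cKO and above it in cWT. Rab2a had 101 ± 3.77 CPM per kilobase in cKO and 66.3 ± 3.59 in cWT, and Rab1b had 88.1 ± 15.2 in cKO and 66.7 ± 1.0 in cWT, so that the order of this pair was within the replicate spread in both genotypes. These levels rest on the annotated length. With the longest annotated transcript Rab14 had a mean of 48.5 CPM per kilobase over all 6 libraries.

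Among the 13 tested Rab genes of the endoplasmic reticulum and Golgi, 3 were called higher and 5 lower in cKO, with a median log2 fold change of -0.10. Counts of this and the following groups stand beside 35.6% of all tested genes called higher and 36.5% called lower. Rab2a, which acts between these compartments, had 224, 214 and 208 CPM in cKO, against 148, 133 and 144 CPM in cWT. All cKO libraries were above all cWT libraries (log2 fold change 0.61, SE 0.09, edgeR adjusted p = 8.81e-06, with SE after ± below). Rab1b, which with Rab1 drives transport to the Golgi, had 154, 149 and 202 CPM in cKO, against 129, 128 and 125 CPM in cWT. Its genotypes did not overlap, cKO replicate 3 stood highest, and its log2 fold change was 0.40 ± 0.11 (edgeR adjusted p = 0.00313). Rab1, named Rab1a in the annotation, had 180, 178 and 160 CPM in cKO, against 152, 153 and 161 CPM in cWT. These values overlapped, and Rab1 was not called (log2 fold change 0.15 ± 0.09, edgeR adjusted p = 0.14). Without cKO replicate 3 it was called higher, with an adjusted p of 0.0222. It was called lower with total counts alone (-0.24, edgeR adjusted p = 0.0245) and with the offsets (-0.25, edgeR adjusted p = 0.00842).

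The lower members of the Golgi group included Rab6b, with the largest decrease among Rab genes above 1 CPM. Rab6b, a paralogue of the Golgi Rab6a best known from neurons, had 38.6, 34.2 and 39.1 CPM in cKO, against 89.2, 94.0 and 93.6 CPM in cWT. The groups were far apart, and the log2 fold change was -1.31 ± 0.10 (edgeR adjusted p = 1.37e-09). Rab33b, a Golgi Rab that binds the autophagy protein Atg16l1, had 19.96, 21.6 and 18.5 CPM in cKO, against 31.0, 29.3 and 32.0 CPM in cWT. It was lower in every cKO library, with a log2 fold change of -0.62 ± 0.12 (edgeR adjusted p = 0.000122). Rab43, which acts in Golgi traffic, had 66.3, 78.9 and 69.6 CPM in cKO, against 107, 104 and 110 CPM in cWT. Again the genotypes did not overlap (log2 fold change -0.58 ± 0.10, edgeR adjusted p = 2.90e-05), but with the offsets Rab43 was called higher (0.23, adjusted p = 0.0192). Rab18, which marks the endoplasmic reticulum and lipid droplets, had 130, 136 and 116 CPM in cKO, against 93.1, 88.9 and 89.6 CPM in cWT. It was higher in every cKO library (log2 fold change 0.49 ± 0.09, edgeR adjusted p = 0.000124). Rab39 (-0.37) and Rab36 (-1.54, under 1 CPM in every library and not called by DESeq2, adjusted p = 0.118) were also called lower, and Rab6a, Rab2b, Rab19 and Rab30 were not called.

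Among the 7 tested early endosomal genes, Rab5c and Rab20 were called higher and none was called lower, with a median log2 fold change of 0.14 that turned to -0.26 with total counts alone. Rab5c had 287, 308 and 364 CPM in cKO, against 217, 215 and 226 CPM in cWT. The genotypes did not overlap, and the log2 fold change was 0.54 ± 0.10 (edgeR adjusted p = 9.84e-05). Its paralogues differed less. Rab5a had 103, 102 and 85.7 CPM in cKO, against 90.2, 88.2 and 87.6 CPM in cWT. Replicate 3 of cKO was the lowest of all 6 libraries, and Rab5a was not called (0.13 ± 0.10, edgeR adjusted p = 0.248). Without that library it was called higher with an adjusted p of 0.0238. It was called lower with total counts alone (-0.27, edgeR adjusted p = 0.0226) and with the offsets (-0.40, edgeR adjusted p = 0.000106). Rab5b had 123, 143 and 138 CPM in cKO, against 132, 137 and 142 CPM in cWT. These ranges overlapped (-0.02 ± 0.09, edgeR adjusted p = 0.833). Rab20, a Rab of macrophage phagosomes and macropinosomes, had 24.7, 24.3 and 24.7 CPM in cKO, against 17.0, 13.8 and 14.8 CPM in cWT. All cKO libraries were higher (0.69 ± 0.13, edgeR adjusted p = 7.83e-05). Rab31, Rab21 and Rab22a, the other tested endosomal members, had log2 fold changes of 0.04 to 0.18 and were not called. With the offsets the higher calls of this group fell on other genes. Rab31 (0.19), Rab21 (0.59) and Rab22a (1.26) were then called higher, while Rab5c (0.02) and Rab20 (-0.22) were not called.

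The recycling Rab genes gave 4 higher and 2 lower calls among 8 tested, with a median log2 fold change of 0.67 (0.29 with DESeq2). Rab11a, the defining GTPase of the recycling endosome, had 309, 264 and 249 CPM in cKO, against 143, 125 and 123 CPM in cWT. The lowest cKO library was well above the highest cWT library, and the log2 fold change was 1.07 ± 0.10 (edgeR adjusted p = 3.85e-08). Its paralogue Rab11b was called lower, but with the offsets for length and GC content it was called higher, like Rab11a (0.39, edgeR adjusted p = 0.00339). It had 67.6, 70.1 and 86.5 CPM in cKO, against 104, 111 and 117 CPM in cWT. The genotypes did not overlap (-0.57 ± 0.11, edgeR adjusted p = 0.00011).

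Both Rab4 genes, which serve fast recycling from early endosomes, were higher in cKO. Rab4b had 89.0, 75.9 and 100 CPM in cKO, against 40.5, 42.2 and 44.0 CPM in cWT (log2 fold change 1.07 ± 0.11, edgeR adjusted p = 7.71e-08). Rab4a had 7.89, 13.5 and 10.9 CPM in cKO, against 3.56, 4.15 and 4.96 CPM in cWT (1.35 ± 0.22, edgeR adjusted p = 2.51e-05). Neither gene overlapped between genotypes. With the offsets neither was called (Rab4b 0.07, edgeR adjusted p = 0.464, and Rab4a 0.36, edgeR adjusted p = 0.164). Rab14, which links endosomes with the Golgi and is found on phagosomes, had 215, 204 and 193 CPM in cKO, against 275, 278 and 288 CPM in cWT. It was lower in all cKO libraries (-0.46 ± 0.09, edgeR adjusted p = 0.000184). Rab12 was called higher with a log2 fold change of 0.28 and lower with the offsets (-0.34), and Rab35 (-0.15) and Rab15 (1.05, under 2 CPM) were not called.

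Of the 4 tested genes of late endosomes, lysosomes and autophagosomes, 3 were called higher and none lower. Rab7 had 443, 430 and 417 CPM in cKO, against 291, 296 and 292 CPM in cWT. The replicates of each genotype lay close together and the genotypes did not overlap (log2 fold change 0.55 ± 0.09, edgeR adjusted p = 2.42e-05). Scaled by total counts alone, Rab7 was not called (0.16, edgeR adjusted p = 0.11). Rab9, which returns mannose 6-phosphate receptors from late endosomes to the Golgi, had 45.4, 38.0 and 35.0 CPM in cKO, against 23.4, 16.5 and 21.8 CPM in cWT. All cKO libraries were higher (0.94 ± 0.14, edgeR adjusted p = 8.94e-06). Rab24, linked to autophagy, had 71.7, 64.7 and 80.8 CPM in cKO, against 38.8, 38.9 and 41.9 CPM in cWT. Here too the genotypes were apart (0.86 ± 0.10, edgeR adjusted p = 7.04e-07). None of these 3 genes was called higher with the offsets for length and GC content, where Rab7 (0.05) and Rab9 (-0.24) were not called and Rab24 was called lower (-0.20, edgeR adjusted p = 0.049). Rab7b, a late endosomal Rab of macrophages and dendritic cells, had 4.38, 5.84 and 4.33 CPM in cKO, against 4.57, 3.79 and 4.35 CPM in cWT. It overlapped and was not called (0.19 ± 0.23, edgeR adjusted p = 0.463).

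The secretory group was split, with 3 of 9 tested genes called higher and 3 lower. Rab8a, which carries vesicles to the plasma membrane and the cilium, had 131, 129 and 135 CPM in cKO, against 68.4, 65.1 and 69.6 CPM in cWT. Every cKO library held nearly the same level and none came near the cWT range (log2 fold change 0.96 ± 0.09, edgeR adjusted p = 2.43e-08). Rab8b, its closest paralogue, had 122, 132 and 114 CPM in cKO, against 214, 215 and 217 CPM in cWT. The genotypes were again far apart, in the opposite direction (-0.81 ± 0.09, edgeR adjusted p = 2.85e-07). Rab10, a relative of the Rab8 pair that serves exocytosis, had 126, 121 and 123 CPM in cKO, against 144, 145 and 151 CPM in cWT. It was lower in each cKO library by a smaller margin (-0.25 ± 0.09, edgeR adjusted p = 0.0168), and without cKO replicate 2 it was not called (adjusted p = 0.0603). Rab27a, which docks secretory granules and exosome-bearing bodies, had 69.9, 85.3 and 66.8 CPM in cKO, against 61.7, 66.2 and 68.0 CPM in cWT. The ranges overlapped and it was not called (0.18 ± 0.11, edgeR adjusted p = 0.137). Rab13 (0.96) was called higher and Rab3d (-0.35), a granule Rab, lower. The genotypes overlapped for Rab13, with 2.73 CPM in cKO replicate 1 and 2.87 CPM in cWT replicate 1. With the offsets neither Rab13 (-0.34) nor Rab3d (0.06) was called. Rab27b (1.63) was called higher at no more than 1.15 CPM in any library, and DESeq2 did not call it (adjusted p = 0.0995). Rab3a, the synaptic vesicle Rab, and Rab37 were not called.

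**Figure D2:**
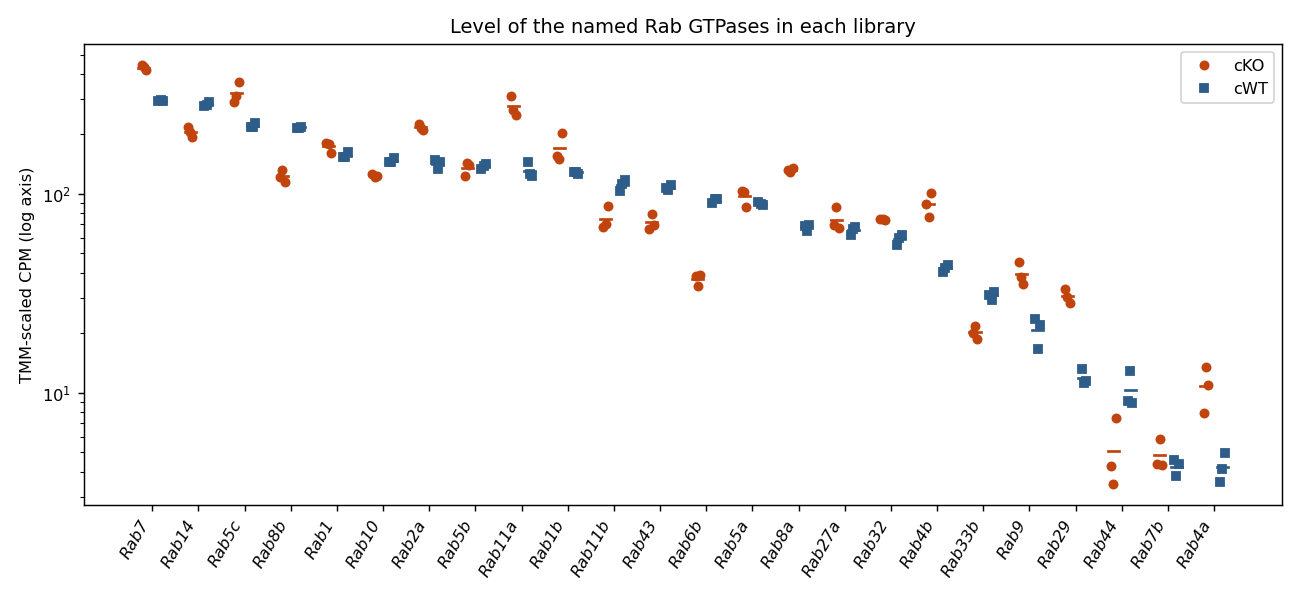
CPM (TMM scaling, log axis) of selected Rab genes in each library, 3 cKO libraries left of 3 cWT libraries, with lines at the genotype means. The points of Rab8a and of Rab8b form separate cKO and cWT clusters in opposite order, while those of Rab5b overlap.

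Both tested Rab genes of lysosome-related organelles were called higher. Rab29, a Golgi and lysosomal Rab that in human cells recruits the kinase LRRK2, had 33.2, 30.4 and 28.2 CPM in cKO, against 13.1, 11.1 and 11.5 CPM in cWT. The genotypes did not overlap, and 1.36 ± 0.13 was its log2 fold change (edgeR adjusted p = 2.53e-08). Rab32, which serves the biogenesis of these organelles and acts at mitochondria, had 74.1, 74.1 and 73.6 CPM in cKO, against 55.3, 59.9 and 61.8 CPM in cWT. It was higher in every cKO library (0.33 ± 0.09, edgeR adjusted p = 0.00461), but its fold change turned to -0.07 when total counts alone scaled the libraries, and with the offsets it was called lower (-0.21, edgeR adjusted p = 0.0323).

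Among the 6 tested genes with ciliary, ubiquitin ligase or less defined roles, 2 were called higher and 1 lower. Rab34, which acts at phagosomes and the cilium, had 24.0, 23.6 and 26.9 CPM in cKO, against 13.4, 13.2 and 14.6 CPM in cWT. All cKO libraries were higher (log2 fold change 0.86 ± 0.12, edgeR adjusted p = 6.54e-06). Rab28, a ciliary Rab, was also called higher (0.78). Rab44, a long Rab linked to mast cell granules, had 4.28, 3.45 and 7.44 CPM in cKO, against 9.10, 12.8 and 8.85 CPM in cWT. It was lower in each cKO library (-1.0 ± 0.25, edgeR adjusted p = 0.00149). With the offsets neither Rab44 (-0.36, edgeR adjusted p = 0.173) nor Rab28 (-0.24) was called. Rab23, Rab40b and Rab40c were not called.

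The kinase LRRK2 phosphorylates a set of Rab proteins, known from human and mouse cells, that cuts across these compartments. Of its 14 listed substrates 12 were tested, and 4 were called higher and 4 lower in cKO, with a median log2 fold change of 0.05. That is 33.3% each way, near the 35.6% of all tested genes called higher and 36.5% called lower. With the offsets 2 substrates were called higher and 5 lower (41.7%), beside 31.5% of all genes called lower. Lrrk2 itself averaged 9.66 ± 1.32 CPM in cKO and 19.2 ± 1.26 CPM in cWT (SD, n = 3 each) and was called lower (-0.98, edgeR adjusted p = 8.94e-06), and it was not called once transcript length and GC content were taken into account (0.23).

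Opposite moves within subfamilies were followed as the share of each paralogue in the summed level per kilobase of its subfamily, which no library scaling can change. Rab8a made up 52.8%, 50.4% and 55.1% of Rab8 transcripts in cKO, against 24.9%, 24.0% and 25.1% in cWT. The mean difference was 28.1 percentage points, and the annotated transcripts of Rab8a and Rab8b are close in length, 4550 and 4733 bases. Rab6a made up 72.3%, 75.2% and 74.99% of the Rab6 pair in cKO, against 55.2%, 55.4% and 55.3% in cWT. Rab11a made up 92.3%, 90.8% and 88.3% of the Rab11 pair in cKO, against 78.3%, 74.6% and 73.3% in cWT. In these 3 subfamilies every cKO library was above every cWT library. In the Rab6 and Rab11 pairs the gene that gained share has the shorter transcript, 3214 against 5007 bases for Rab6a and Rab6b and 2336 against 6109 bases for Rab11a and Rab11b.

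Other subfamilies shifted less. Rab5c had a share of 66.6% ± 3.38 of the Rab5 genes in cKO and 58.7% ± 0.410 in cWT (SD, n = 3 each), while Rab5b had 16.9% ± 1.02 in cKO and 22.1% ± 0.486 in cWT. Rab2a had 95.0% ± 0.327 of the Rab2 pair in cKO and 92.1% ± 0.339 in cWT. Rab1 had 42.7% ± 5.52 of its pair in cKO and 46.7% ± 1.17 in cWT, with overlapping libraries. Rab4b stood at 90.6% ± 3.16 in cKO and 92.3% ± 0.892 in cWT, and Rab7 at 99.5% ± 0.0952 in cKO and 99.3% ± 0.0718 in cWT of its pair with Rab7b. Rab5c and Rab2a, which gained share, also have the shortest transcripts of their subfamilies. Rab5c has 1915 bases against 3180 for Rab5b, and Rab2a 2133 against 2906 for Rab2b. Rab4b, the shorter of its pair at 1192 against 1419 bases, did not gain share. The two-sided exact permutation test gave p = 0.1 for Rab8a, Rab6a, Rab11a, Rab5b, Rab5c and Rab2a, the smallest p that 3 against 3 libraries allow, and 0.2 for Rab8a, Rab6a, Rab11a and Rab2a after adjustment over the 8 subfamilies. The Rab5 subfamily entered that adjustment with the p of 0.2 of Rab5a, which gave 0.267.

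**Figure D3:**
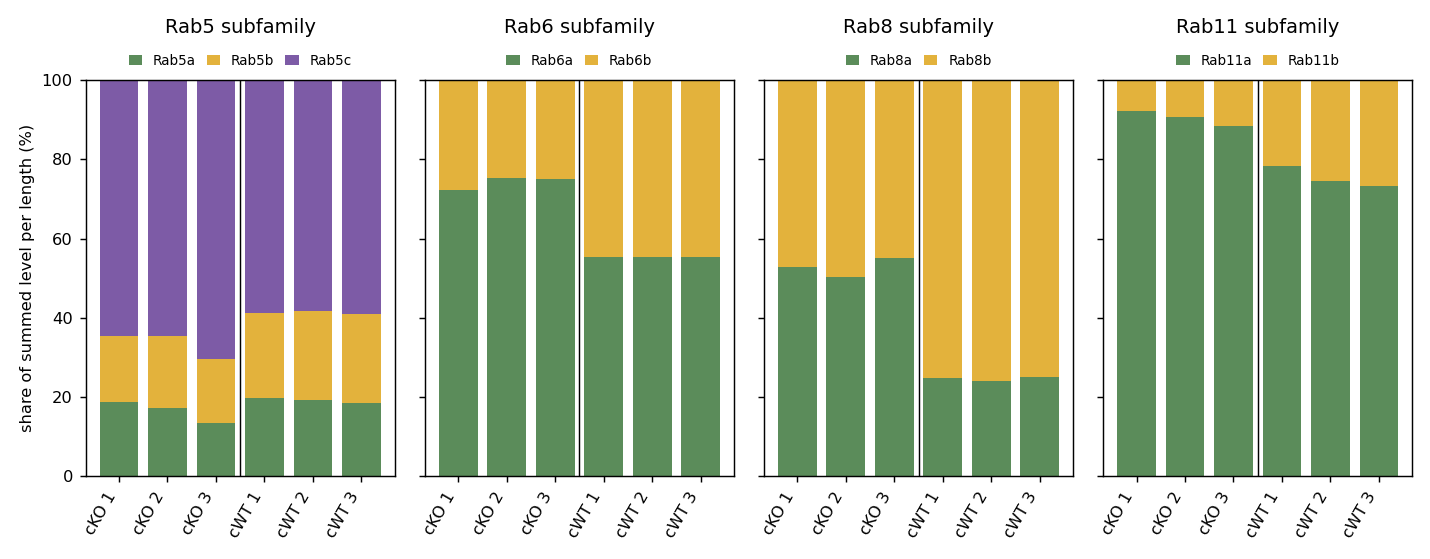
Share (%) of each paralogue in the summed CPM per kilobase of the Rab5, Rab6, Rab8 and Rab11 subfamilies, 1 stacked bar per library, cKO left of cWT. Rab8a fills 50.4% to 55.1% of the bar in cKO and 24.0% to 25.1% in cWT.

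Fold changes followed transcript length across the whole table. The Spearman correlation of log2 fold change with transcript length was -0.72 over 13397 genes and -0.59 over the 49 tested Rab genes, both given as descriptions across genes that share the same 6 libraries. Among the 22 Rab genes in the 4 shortest of 10 equal length classes of all genes, 16 were called higher in cKO and 0 lower by edgeR, where 68.3% of all genes in those classes were called higher and 7.25% lower. Among the 27 in the 6 longest classes, 3 were called higher and 11 lower, where 13.8% of all genes were called higher and 56.2% lower. The 3 long genes called higher were Rab8a, Rab18 and Rab27b. Rab8a, at 0.96, lay in a class with a median of -0.67, and Rab18, at 0.49 with an annotated transcript of 6515 bases, in one with a median of -1.44. At the short end, Rab29 (1.36) lay in a class with a median of 0.99 and Rab4b (1.07) in one with a median of 1.58.

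The second fit used an offset for each library, smoothed over transcript length and GC content. It called 11 Rab genes higher and 12 lower in cKO, with a median log2 fold change of 0.00, beside 25.9% higher and 31.5% lower of 13397 genes. Of the 19 genes called higher without offsets, 5 were still called higher (Rab11a, Rab8a, Rab18, Rab34 and Rab27b), 11 were not called and 3 were called lower (Rab12, Rab24 and Rab32). Of the 11 called lower, 6 were still called lower (Rab6b, Rab33b, Rab39, Rab14, Rab10 and Rab8b). A further 3 were not called (Rab36, Rab3d and Rab44), and Rab43 and Rab11b were called higher. With the offsets Rab7 (0.05), Rab5c (0.02), Rab2a (-0.02), Rab4b (0.07) and Rab29 (0.10) were not called. Rab8a stood at 1.52 (edgeR adjusted p = 4.32e-13), Rab11a at 0.46 and Rab6b at -0.56. Genes not called before included Rab22a, an endosomal Rab with a transcript of 7155 bases, which stood at 1.26 with the offsets. With the offsets the Spearman correlation of log2 fold change with transcript length was -0.08 over 13397 genes but 0.33 over the 49 tested Rab genes. Among the Rab genes the relation to length was thus reversed and not removed. These offsets hold as far as the annotated transcript is the one expressed, and the cause of the length trend was not tested.

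The calls of 7 Rab genes held in the fit reported here and in every alternative run. They were Rab8a, Rab11a and Rab34, higher in cKO, and Rab6b, Rab8b, Rab14 and Rab33b, lower in cKO. The share of all tested genes that held in this way is not given here, so this count cannot be set against genes at large. Over all alternatives the log2 fold change of Rab8a ranged from 0.57 to 1.52, that of Rab11a from 0.46 to 1.15 and that of Rab34 from 0.32 to 0.91. The change in Rab6b ranged from -1.70 to -0.56, that in Rab8b from -1.20 to -0.41, that in Rab14 from -0.85 to -0.40 and that in Rab33b from -1.01 to -0.55. Rab8a and Rab8b lie on chromosome 8 (72161200 to 72183904, plus strand) and chromosome 9 (66843664 to 66919687, minus strand). Rab11a (64715299 to 64737758, minus strand) and Rab6b (103111787 to 103185276, plus strand) also lie on chromosome 9.

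**Figure D4:**
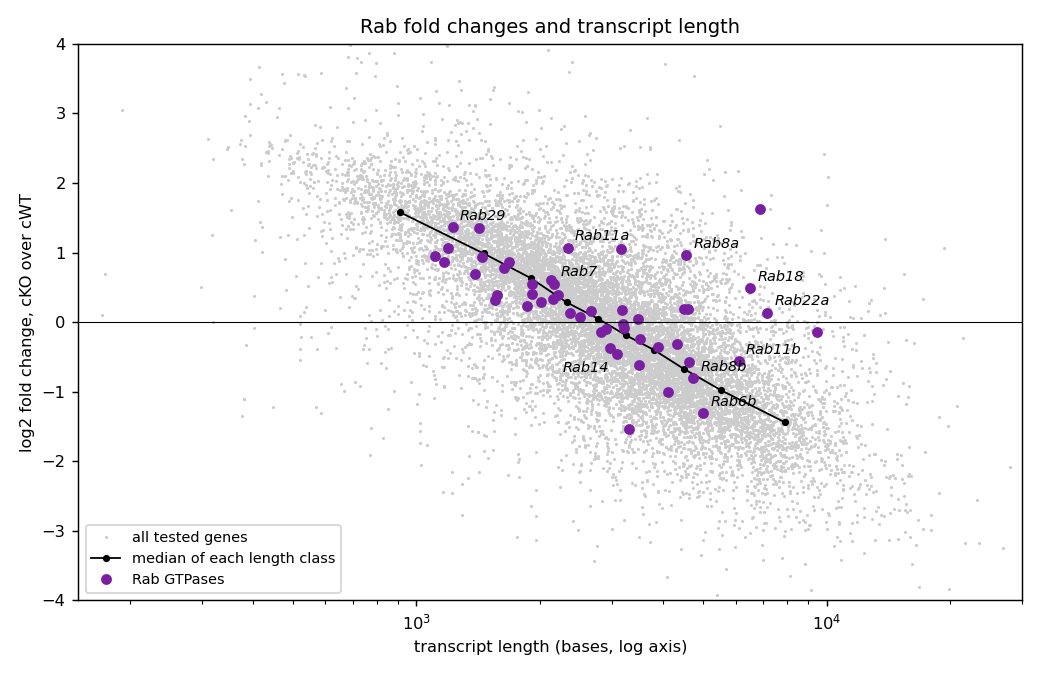
Log2 fold change, cKO over cWT, against annotated transcript length (bases, log axis), for the tested Rab genes over all tested genes, with the median of each of 10 equal length classes as a line. The line stands at 1.58 in the shortest class and at -1.44 in the longest, and Rab8a, Rab18 and Rab22a stand above it. A further 33 genes, none of them a Rab gene, lie outside the plotted range.

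The regulators of the Rab cycle were counted beside the 36.5% of all tested genes called lower. Of 37 tested exchange factors 28 (75.7%) were called lower and 4 higher in cKO, with a median log2 fold change of -0.99. The 3 with the smallest p were lower. Dennd4b, of the DENN family, averaged 25.7 ± 3.51 CPM in cKO and 92.0 ± 5.86 CPM in cWT (log2 fold change -1.84). Gapvd1, which acts on Rab5, averaged 36.4 ± 0.643 CPM in cKO and 101 ± 1.74 CPM in cWT (-1.48). Smcr8, which works in a complex with C9orf72, averaged 33.0 ± 2.64 CPM in cKO and 97.0 ± 7.97 CPM in cWT (-1.56). The 4 called higher were Mon1a (0.44) and Ccz1 (0.64), which together load Rab7, and Rab3ip (0.68), which loads Rab8, and Rabif (0.55).

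GTPase-activating proteins gave 24 lower (68.6%) and 4 higher calls among 35 tested, with a median of -0.58. Tbc1d24 averaged 8.71 ± 0.470 CPM in cKO and 32.3 ± 2.01 CPM in cWT (log2 fold change -1.89). Tbc1d2b (-1.30) and Tbc1d5 (-1.42), which acts on Rab7 and retromer, were also lower. The 4 called higher were Tbc1d10a (0.91), Tbc1d10c (0.75), Tbc1d15 (0.52) and Tbc1d17 (0.41).

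Of 52 tested effectors and tethers 36 (69.2%) were called lower and 5 higher, with a median of -0.59. Fyco1, which couples Rab7 to kinesin, averaged 18.9 ± 1.15 CPM in cKO and 68.0 ± 3.72 CPM in cWT (log2 fold change -1.85). Lrrk1 (-1.59), a kinase that phosphorylates Rab7 in human cells, and Tgfbrap1 (-1.64), a subunit of the CORVET tether at early endosomes, were also lower. Eea1, the Rab5 tether, averaged 18.1 ± 2.77 CPM in cKO and 43.7 ± 3.80 CPM in cWT (-1.27). The 5 called higher were Rilp (1.31), which couples Rab7 to dynein, Rilpl1 (0.40), Rilpl2 (0.99), Mlph (1.0) and Myrip (0.69). The last pair are effectors of Rab27.

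The delivery machinery was split, with 3 of the 6 genes reported called higher and 2 lower. Rabac1, a prenylated Rab acceptor, averaged 750 ± 24.9 CPM in cKO and 197 ± 20.8 CPM in cWT (log2 fold change 1.93, edgeR adjusted p = 2.57e-11). Rabggtb, the catalytic subunit of the Rab geranylgeranyl transferase, averaged 81.0 ± 8.88 CPM in cKO and 31.9 ± 2.83 CPM in cWT (1.34), while the other subunit, Rabggta, was not called (0.28). Gdi2, a GDP dissociation inhibitor, averaged 1113 ± 64.4 CPM in cKO and 598 ± 38.0 CPM in cWT (0.90). The escort protein genes Chml (-1.82) and Chm (-0.39) were both called lower.

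The lists differed in length, with a median transcript of 2906 bases for the Rab genes, 4998 for exchange factors, 4340 for GTPase-activating proteins and 4287 for effectors. With the offsets for length and GC content the medians of the regulators were -0.21 for exchange factors (4 higher, 18 lower), -0.16 for GTPase-activating proteins (6 higher, 13 lower) and -0.12 for effectors (8 higher, 18 lower), against -0.07 for all genes. The shares called lower were then 48.6% of exchange factors, 37.1% of GTPase-activating proteins and 34.6% of effectors, beside 31.5% of all genes, and no test of the lists was run. Gdi2, with a transcript of 4303 bases, was still called higher with the offsets at 1.14, as was Rabac1 at 0.70. Eea1 and Rilp were not called with them.

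**Figure D5:**
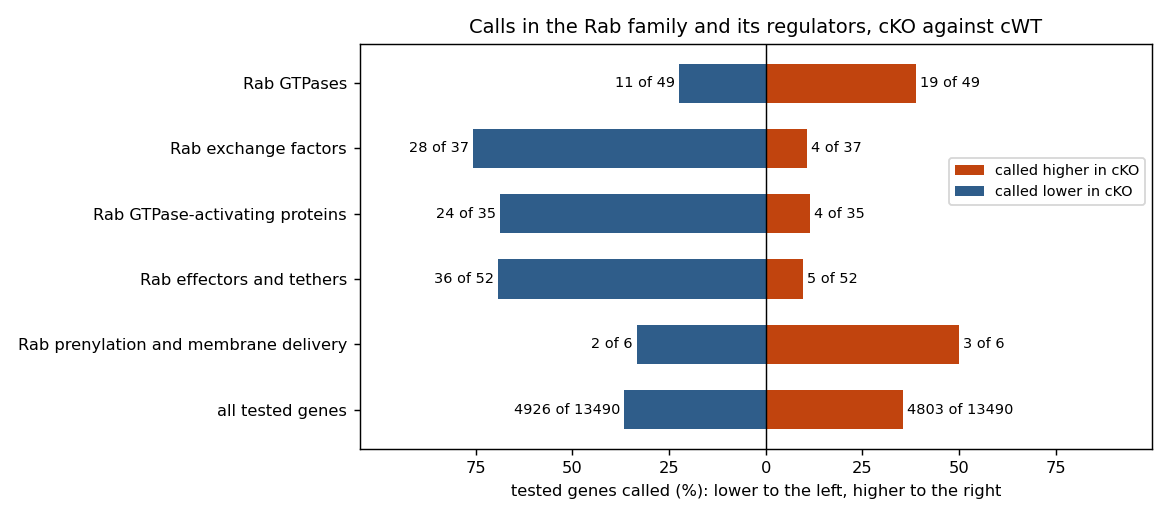
Share (%) of tested genes called higher (right) and lower (left) in cKO in the Rab family, in its exchange factors, GTPase-activating proteins, effectors and delivery factors, and in all tested genes, with the counts beside the bars (TMM scaling). With total counts alone the Rab family gave 11 higher and 21 lower calls, beside 3331 higher and 6742 lower calls among all 13490 tested genes.

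The authors' deposited table of the same comparison listed 18 Rab genes higher and 9 lower at a deposited adjusted p under 0.05. The share of all its genes under that threshold is not given here, so these counts cannot be set against genes at large. The DESeq2 fit run here called 18 of 58 Rab genes higher and 10 lower, beside 4799 higher and 4711 lower of 16971 genes. All 49 tested Rab genes had the same sign of fold change there as in the edgeR fit. In the authors' deposited table Rab8a had a log2 fold change of 0.96 and Rab8b of -0.81.

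Some counts could hold reads of other genes. The annotated exons of 15 Rab genes overlap a gene on the opposite strand, among them Rab7, Rab10, Rab11b, Rab5a, Rab6a and Rab24, and those of 6 overlap a gene on the same strand, among them Rab11a, Rab43, Rab4b, Rab18 and Rab27a. Neither the labels nor the files state the strand setting of the counting, so reads of overlapping genes cannot be told apart. Rab8a, Rab8b, Rab6b, Rab14 and Rab34 have no such overlap.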

How the data were processed

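Microglia of 3 cKO and 3 cWT samples were profiled by RNA sequencing, grouped by their titles. The authors deposited estimated counts per gene symbol, unscaled. The submitters' processing notes list STAR 2.7.9a, RSEM and DESeq2 and the builds GRCm38 and mm10, without roles. No label or header states the annotation or strand setting. The authors' deposited comparison table gives a base mean (a scaled signal), a log2 fold change and standard error, a Wald statistic (a score) and p-values, per the file headers.

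Counts were rounded and tested with edgeR 4.0.16 (quasi-likelihood, TMM, robust dispersion, R 4.3.3) after filterByExpr with a minimum count of 10. P-values were adjusted by Benjamini-Hochberg over all tested genes, and genes were called at an adjusted p under 0.05. Replicate pairs differed beyond counting noise (chi-square over its degrees of freedom, 3.82 to 18.6).

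Lengths, exons and 3' UTRs came from GENCODE annotation of GRCm38, and all 59 Rab genes matched. The length was that of the principal transcript where the annotation marks one. Offsets were natural splines with 5 degrees of freedom per library. Alternatives were DESeq2 1.42.0, limma-voom (limma 3.58.1), other scalings and filters, a replicate block, the offsets, and leaving out each library. Full values are given for the 6 largest called increases and decreases (average log2 CPM of at least 2, no overlap), the 6 highest levels per length, 13 Rab genes listed by name, and the 3 smallest p of each list. Other genes were named after their values were seen. Some genes of the lists are not reported here. The members and lists were chosen with earlier results of these data known.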

Additional observations from a re-analysis of the deposited data

How the results depend on the processing

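No call of a Rab gene turned to its opposite under DESeq2, other factors, other filters, limma-voom, the replicate block or a left-out library. Scaled by total counts alone, the median of all genes moved to -0.42 and the Rab median was -0.20. In that fit 11 Rab genes were called higher and 21 lower in cKO, beside 3331 higher and 6742 lower of all 13490 tested genes. Offsets for length and GC content gave 11 higher calls and a median of 0.0012. With total counts alone the medians were -0.49 (endoplasmic reticulum and Golgi), -0.26 (early endosome), 0.28 (recycling), 0.31 (late endosome), -0.080 (secretory), 0.45 (lysosome-related), -0.24 (ciliary and others), -1.38 (exchange factors), -0.97 (GTPase-activating proteins), 0.19 (delivery) and -0.98 (effectors). With the offsets they were -0.23 (endoplasmic reticulum and Golgi), 0.018 (early endosome), 0.22 (recycling), -0.073 (late endosome), 0.0012 (secretory), -0.054 (lysosome-related), -0.084 (ciliary and others), -0.21 (exchange factors), -0.16 (GTPase-activating proteins), 0.24 (delivery) and -0.12 (effectors), while the median of all genes was -0.07. Small groups also moved when low genes entered or left. The recycling median was 0.29 with DESeq2, 0.24 without a filter and 0.30 at 5 CPM or more in 3 libraries. The lysosome-related median was 0.33 with DESeq2 and 0.28 without a filter, the late endosomal median 0.51 without a filter, and the secretory median -0.017 at 5 CPM or more. The median of ciliary and other genes was -0.13 with limma-voom, and that of effectors -0.64 with limma-voom and -0.69 at 5 CPM or more. Leaving out 1 library gave medians of -0.18 to 0.086 (endoplasmic reticulum and Golgi), 0.39 to 0.65 (recycling), -0.031 to 0.41 (ciliary and others) and -0.72 to -0.57 (effectors), with 17 to 23 Rab genes called higher and 8 to 12 lower.

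With the offsets 19 tested Rab genes changed sign, among them Rab24 (-0.20), Rab12 (-0.34), Rab20 (-0.22), Rab9 (-0.24), Rab43 (0.23), Rab11b (0.39), Rab2a (-0.019), Rab1 (-0.25), Rab5a (-0.40), Rab5b (0.0058) and Rab32 (-0.21). With total counts alone 14 changed sign, among them Rab1 (-0.24), Rab5a (-0.27), Rab7b (-0.20), Rab32 (-0.069) and Rab27a (-0.21). Without 1 library Rab5b ranged from -0.056 to 0.034. In every such fit 17 of the 19 higher and 7 of the 11 lower calls held, the exceptions being Rab27b, Rab12, Rab36, Rab10, Rab3d and Rab39. Without division by length the differences in share were 3.79 percentage points for Rab2a, -6.34 for Rab5b, 20.5 for Rab6a, 0.311 for Rab7 and 24.4 for Rab11a. With its longest transcript Rab14 had 48.5 CPM per kilobase, and 2 Rab genes held the 8-base match. The cause of these changes was not tested.

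The fit reported here did not pair the samples by replicate number, and whether these numbers stand for pairs was not tested. Deviations of same-numbered libraries correlated weakly, at 0.0985, 0.0335 and 0.0882, but each library correlated most with its own number. With the replicate block, 19 Rab genes were called higher and 10 lower, Rab36 losing its call. At low depth calls were less firm: Rab36 and Rab27b, at no more than 1.15 CPM in any library, lost theirs under DESeq2, without a filter and without some libraries.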
